A study of Mus musculus with 6 samples.

Results

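Microglia are the resident immune cells of the brain, and 37 genes that mark their resting and their disease-associated states were examined in the mouse hippocampus. The members were chosen by gene symbol from those lists, 17 of them homeostatic and 20 disease-associated, and 34 of the 37 were among the 20604 genes tested. All 17 homeostatic genes were tested and 17 of the disease-associated genes, while Cst7, Itgax and Clec7a were not analysed here. RNA came from whole hippocampus of 6 male mice on a C57BL/6J background, with 1 library per mouse made by the SMART-Seq Stranded Kit. The n-Braf group held 3 mice aged 32 to 34 weeks labelled n-Braf Q241R/+, of genotype Braf Q241R/+ ;CaMKII-Cre, in which Cre is driven by the promoter of a kinase of excitatory neurons. The control group held 3 mice aged 31 to 32 weeks of genotype Braf Q241R Neo/+, with the same substitution on an allele labelled Neo and no Cre. Both groups thus carry a Q241R allele, no wild-type mouse was analysed here, and effects of Cre, of the Neo allele and of the mutant protein cannot be told apart. Braf encodes a kinase that relays RAS signals to ERK, and the mice model cardio-facio-cutaneous syndrome.

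Microglia survey the tissue with motile processes, and in the healthy brain they express a characteristic set of receptors, among them the ADP receptor P2RY12 and the fractalkine receptor CX3CR1, together with the complement protein C1q. Around plaques, dying cells and damaged myelin they lower such receptors and raise genes for lipid uptake and lysosomal degradation. The full rise of the latter genes depends on the receptor TREM2 and its adaptor TYROBP. CSF1R signalling, driven by CSF1 and IL-34, keeps microglia alive. Microglia are not among the cells in which this Cre driver is expected to act.

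Each library held between 25227136 and 31832285 assigned counts. Control 1 stood apart, since its counts differed from those of each other library by 51.1 to 69.2 in chi-square over the degrees of freedom, where the remaining pairs gave 8.89 to 14.1. Markers of the choroid plexus, the epithelium that secretes cerebrospinal fluid, were high in controls 1 and 2. The summed level of 13 choroid plexus markers, in CPM (counts scaled to a common library size by trimmed means), was 92, 109 and 104 in the n-Braf libraries, against 3603, 2030 and 141 in the controls, and 0 of the 13 markers were absent from any library. Braf itself averaged 191 ± 12.1 CPM in n-Braf and 119 ± 4.18 CPM in controls (SD, n = 3 each). Over all genes the quasi-likelihood test of edgeR called 0 genes at an adjusted p of 0.05, a share of 0%, so 0 members passed too. At an unadjusted p of 0.05 it had 1405 genes, or 6.82%, and the groups did not overlap in 2374 genes, or 11.5%. With 0 calls, every difference is given as a value only.

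The microglial markers were all present. P2ry12, P2ry13, Tmem119, Cx3cr1, Csf1r, Siglech, Sall1 and Gpr34 were each counted in all 6 libraries. Markers of border-associated macrophages, which live in the meninges and around vessels, were mostly scarcer. Mrc1, their mannose receptor, was at 5.38, 4.15 and 2.76 CPM in n-Braf, against 4.96, 1.57 and 5.14 CPM in controls. Stab1, another marker of these macrophages, averaged 11 CPM in n-Braf and 10.2 CPM in controls, more than Tmem119, Siglech or Gpr34 before division by exon length. Per length of exon Stab1 was the lowest of these genes in both groups. The n-Braf means per kb were 1.07 CPM for Stab1, 2.17 for Tmem119, 2.13 for Siglech and 2.28 for Gpr34. The control means per kb, in the same order, were 0.996, 2.05, 1.97 and 2.78 CPM. The 7 tested macrophage markers summed to 15.2 to 22.2 CPM in n-Braf and to 12.2 to 23.3 CPM in controls. Cbr2, 1 of them, was at 0 in 1 library. All 7 had log2 fold changes above 0, with a median of 0.085, and 0 had an unadjusted p under 0.05 in edgeR's quasi-likelihood test. Of 10 markers of blood leukocytes 0 were among the genes tested. In whole tissue, fewer microglia and less RNA per microglial cell cannot be told apart.

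The stretches of DNA just upstream of 4 members are shown because a motif of microglial or lysosomal regulation was found in each. P2ry12, C1qb and C1qc were lowest in the library n-Braf 2, as were 11 of the 17 homeostatic genes, and Ctsd was among the 6 members with the smallest p. Of the other members with a motif, Fcrls was lowest in n-Braf 2 too. Sall1, Siglech, Lyz2 and Spp1 were lowest in other libraries, and Cst7 was not tested. Capitals mark AGGAAGT, a form of the site of PU.1, the transcription factor that defines the myeloid lineage, and CACGTG, the E-box that TFEB binds at many lysosomal genes. Each is the 250 bases before the RefSeq start on GRCm38.p6, written 5′ to 3′ on the gene's own strand, and the motifs were searched on both strands after the values were seen. P2ry12 lies at chr3:59262986-59263235, C1qb at chr4:136886201-136886450, C1qc at chr4:136892915-136893164 and Ctsd at chr7:142387828-142388077, all on the minus strand. The GENCODE M21 annotation starts C1qc at 136893065 and Ctsd at 142388038, so both windows lie partly inside the genes as annotated there.
P2ry12: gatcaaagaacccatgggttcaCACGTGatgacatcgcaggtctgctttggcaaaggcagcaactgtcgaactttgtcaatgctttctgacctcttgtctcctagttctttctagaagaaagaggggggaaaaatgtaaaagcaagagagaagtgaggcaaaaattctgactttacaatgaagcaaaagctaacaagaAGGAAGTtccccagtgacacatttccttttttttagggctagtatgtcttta
C1qb: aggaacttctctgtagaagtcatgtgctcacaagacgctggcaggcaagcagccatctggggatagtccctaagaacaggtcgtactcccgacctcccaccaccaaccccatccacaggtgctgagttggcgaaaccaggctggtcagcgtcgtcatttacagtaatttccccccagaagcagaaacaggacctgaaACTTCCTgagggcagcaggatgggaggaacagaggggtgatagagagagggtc
C1qc: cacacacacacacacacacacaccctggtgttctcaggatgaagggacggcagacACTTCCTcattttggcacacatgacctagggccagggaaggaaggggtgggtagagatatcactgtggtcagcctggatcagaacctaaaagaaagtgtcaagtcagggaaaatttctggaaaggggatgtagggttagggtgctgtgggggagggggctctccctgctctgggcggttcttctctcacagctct
Ctsd: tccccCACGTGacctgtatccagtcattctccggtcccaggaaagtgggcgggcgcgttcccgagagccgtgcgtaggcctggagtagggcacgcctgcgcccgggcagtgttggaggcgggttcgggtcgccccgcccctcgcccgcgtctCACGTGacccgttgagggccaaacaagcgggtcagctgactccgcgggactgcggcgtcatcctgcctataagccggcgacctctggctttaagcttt
P2ry12 had AGGAAGT starting 52 bases upstream, on its own strand, and CACGTG 228 bases upstream. C1qb and C1qc had AGGAAGT on the other strand, read here as ACTTCCT, starting 53 and 195 bases upstream. Ctsd had CACGTG at both 245 and 98 bases upstream. RefSeq windows were found for 29 of the 37 members. Among 14 windows of homeostatic genes 5 held AGGAAGT (35.7%), and among 21 windows of disease-associated genes 3 did (14.3%), against 7.69% of all 32851 windows. CACGTG was in 14.3% of the homeostatic windows, 4.76% of the disease-associated windows and 6.02% of all windows. A match of letters is a description and does not show that a factor binds there.

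The groups overlapped in 16 of the 17 homeostatic genes, and in all but 11.5% of all genes. Of the 17 tested, 10 were higher in n-Braf, against 49% of all genes, and 7 were lower, against 51%. The median log2 fold change, n-Braf over control, was 0.017, and over all genes it was -0.0042. With library sizes alone as the scaling the median was -0.0045 and 9 were lower. The largest differences in the subset were -0.29 and 0.12. In edgeR's quasi-likelihood test 0 of the 17 had an unadjusted p under 0.05, against 6.82% of all genes. Summed over the subset the level was 243, 190 and 250 CPM in n-Braf, against 215, 218 and 258 CPM in controls. The groups overlapped in this sum, with n-Braf 2 the lowest of all 6 libraries and control 3 the highest.

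**Figure D1:**
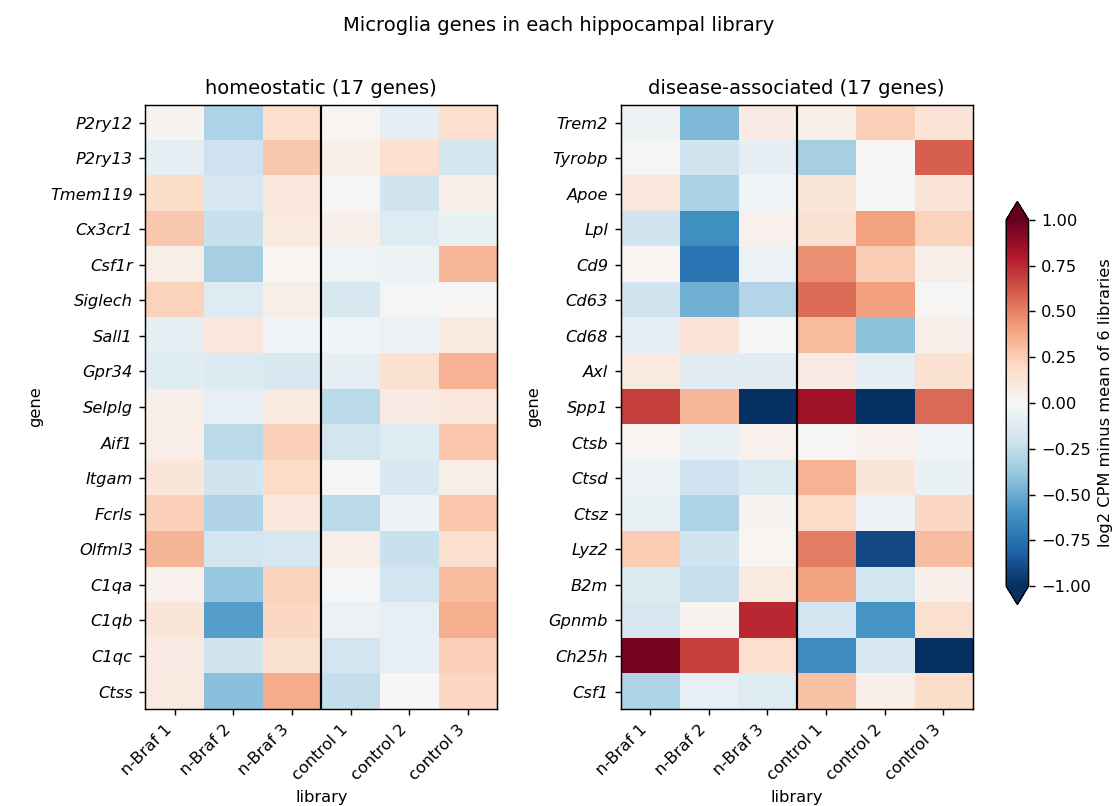
Heat map of the 34 tested members, with genes down the side and libraries across, the 3 n-Braf libraries left of the black line and the 3 controls right of it. Colour is the log2 CPM minus the gene's mean over 6 libraries, saturated beyond 1 and -1. The n-Braf 2 column is blue for most homeostatic genes, while Cd63, Lpl, Cd9 and Csf1 are blue or near white in n-Braf and red or near white in controls.

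Among the surface receptors, P2ry12, which senses ADP and steers microglial processes, stood at 14.8, 11.7 and 16.4 CPM in n-Braf, against 14.7, 13.6 and 16.4 CPM in controls. Its log2 fold change was -0.06 (SE 0.14). Tmem119, a membrane protein used as a microglial marker, was at 5.51, 4.31 and 5.24 CPM in n-Braf, against 4.89, 4.23 and 5.1 CPM in controls, and its log2 fold change was 0.084 (SE 0.16). The groups overlapped in both genes. Cx3cr1, the receptor for the neuronal chemokine fractalkine, was at 23.4, 16.6 and 20.8 CPM in n-Braf, against 20.1, 17.7 and 18.4 CPM in controls, and its log2 fold change was 0.11 (SE 0.13). The n-Braf libraries held both the highest and the lowest value. Siglech, a sialic acid-binding lectin, was at 8.11, 6.33 and 7.22 CPM in n-Braf, against 6.15, 6.84 and 6.97 CPM in controls, a log2 fold change of 0.12 (SE 0.14). Gpr34, a receptor for lysophosphatidylserine, was the homeostatic gene in which the groups did not overlap, at 4.82, 4.75 and 4.7 CPM in n-Braf, against 4.92, 5.83 and 6.7 CPM in controls. The nearest control lay only just above the n-Braf values, and the log2 fold change of -0.29 (SE 0.16) had an adjusted p of 0.802 in edgeR's quasi-likelihood test. P2ry13, a second ADP receptor, Itgam, the CD11b chain of complement receptor 3, Selplg, the ligand of P-selectin, and Fcrls, an Fc receptor-like scavenger receptor, overlapped between groups too. P2ry12 and P2ry13 overlap Med12l, Gpr34 overlaps Cask, Csf1r overlaps Hmgxb3, Cx3cr1 overlaps Wdr48 and Ttc21a, Ctsb overlaps Fdft1, and Ctsz overlaps Nelfcd, each on the opposite strand. Cx3cr1 also overlaps Gorasp1, Csrnp1 and Xirp1 on its own strand. These overlaps are of whole gene spans, and exons were not compared. The counts of P2ry12, P2ry13, Gpr34, Cx3cr1 and Ctsz were whole in every library, while those of Csf1r and Ctsb were fractional in every library. Because the strand setting of the counting is not given in the sources used here, whether reads of opposite strands were separated is not known.

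Csf1r, the receptor for CSF1 and IL-34, was at 41.4, 31.4 and 40.2 CPM in n-Braf, against 38.6, 38.3 and 49.8 CPM in controls. The log2 fold change was -0.16 (SE 0.13), and without control 3, the highest library, the remaining controls fall inside the n-Braf range. Its ligand Csf1, placed among the disease-associated genes, was at 12.8, 15 and 14.5 CPM in n-Braf, against 19.4, 16.5 and 18.1 CPM in controls. All 3 n-Braf libraries lay below all 3 controls, and the log2 fold change was -0.35 (SE 0.11, unadjusted p = 0.00895 and adjusted p = 0.570 in edgeR's quasi-likelihood test). Neurons, astrocytes and oligodendrocytes are known to make CSF1 as well. Il34, the other ligand, and the fractalkine gene Cx3cl1 stood on a list of 6 ligands of microglial receptors. In that list Cx3cl1 was at 249, 199 and 235 CPM in n-Braf, against 199, 200 and 217 CPM in controls. Gas6, a ligand of AXL and MERTK, was at 33.4, 36.9 and 29.3 CPM in n-Braf, against 58.1, 43.4 and 33.8 CPM in controls. Among the controls alone Gas6 was highest in control 1 and lowest in control 3, as the summed choroid plexus markers were. Its lowest library was n-Braf 3, and whether choroid plexus tissue has a part in its values was not tested. Of the 6 ligands 2 were higher and 4 lower, with a median of -0.17. Sall1, a transcription factor that maintains microglial identity, averaged 16.4 ± 1.27 CPM in n-Braf and 16.6 ± 0.970 CPM in controls (SD, n = 3 each).

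The 3 chains of C1q, which starts the classical complement cascade and tags synapses for removal by microglia, are encoded side by side on chromosome 4. C1qa was at 10.7, 7.99 and 12.3 CPM in n-Braf, against 10.3, 9.12 and 13 CPM in controls. C1qb was at 12.0, 7.58 and 12.9 CPM in n-Braf, against 10.6, 10.5 and 14.3 CPM in controls. C1qc was at 12.4, 10.2 and 12.9 CPM in n-Braf, against 10.3, 11 and 13.8 CPM in controls. In all 3 genes n-Braf 2 was the lowest library and control 3 the highest, and the log2 fold changes were -0.069, -0.13 and 0.017, with SEs of 0.18, 0.21 and 0.14, where the sign of C1qc turned to -0.0045 with library sizes alone. Of 9 tested genes of the rest of the complement system, 8 were lower and 1 higher, with a median of -0.35. C3, the central component, was at 1.13, 0.346 and 0.681 CPM in n-Braf, against 2.46, 1.46 and 1.87 CPM in controls, with no overlap, and the log2 fold change was -1.42 (SE 0.41, adjusted p = 0.548 in edgeR's quasi-likelihood test). Cd59a, an inhibitor of the terminal complex, was at 2.03, 1.89 and 1.43 CPM in n-Braf, against 5.93, 4.52 and 1.71 CPM in controls, highest in controls 1 and 2.

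Ctss, a lysosomal protease of microglia, was the most abundant homeostatic gene per length of exon, at 26.1 CPM per kb in n-Braf, against 25.3 CPM per kb in controls. Its libraries ranged from 25.6 to 44.3 CPM in n-Braf, a range that contains the controls at 29.1, 34.4 and 39.8 CPM, and its log2 fold change was 0.044 (SE 0.19). Aif1, the actin-binding protein IBA1, averaged 2.34 ± 0.422 CPM in n-Braf and 2.30 ± 0.434 CPM in controls. Olfml3, a secreted matrix protein, averaged 9.13 ± 1.99 CPM in n-Braf and 9.07 ± 1.23 CPM in controls (SD, n = 3 each).

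The library n-Braf 2 was low in most homeostatic genes. It was the lowest of the 6 libraries in 11 of the 17 (64.7%), while over all genes tested it was the lowest in 15.4%. It was also the lowest in 10 of the 17 disease-associated genes and in 19 of 35 microglia genes of a separate list. Control 3 was the highest in 8 of the 17 homeostatic genes. Without n-Braf 2 the homeostatic median was 0.10, with 3 of 17 lower, and without control 3 it was likewise 0.10, with 3 of 17 lower. Against control 3 alone, without controls 1 and 2, it was -0.17, with 14 of 17 lower.

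**Figure D2:**
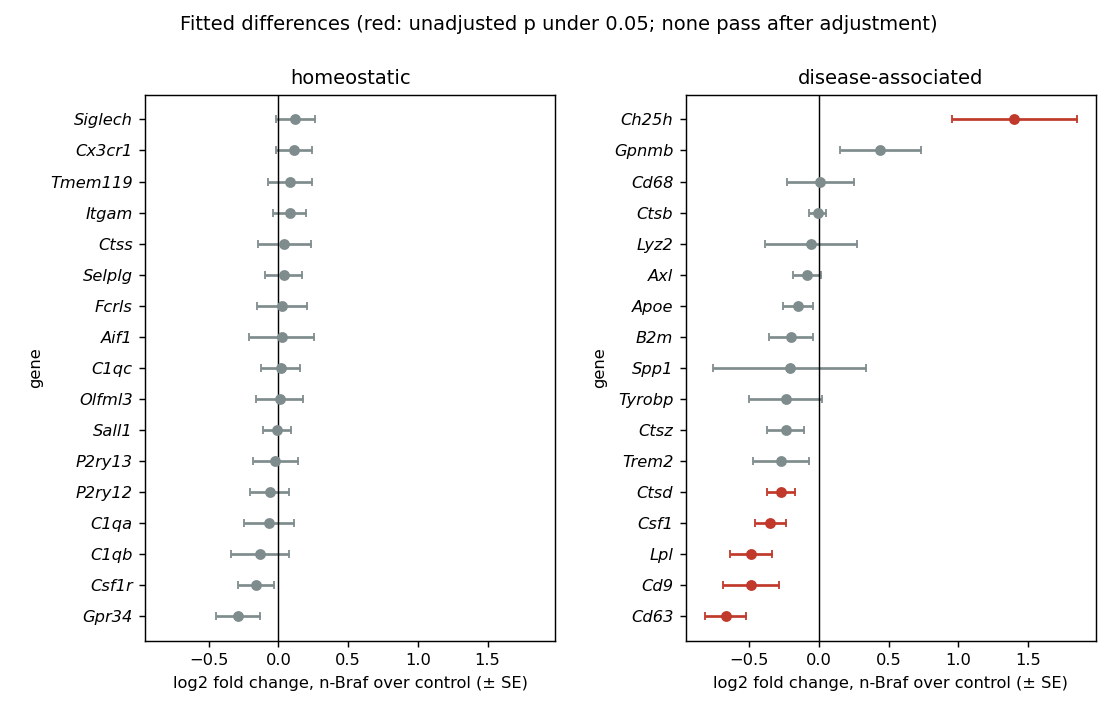
Log2 fold change of each tested member, n-Braf over control, with its SE, homeostatic genes on the left and disease-associated genes on the right, each ordered by value. Homeostatic genes lie between -0.29 and 0.12, while 14 of 17 disease-associated genes lie below 0 and the 6 in red have an unadjusted p under 0.05, among them Ch25h, which passed the filter through n-Braf alone.

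Most disease-associated genes had log2 fold changes below 0, though in most of them the groups overlapped. Of the 17 tested, 14 were lower in n-Braf, against 51% of all genes, and 3 were higher, against 49%. Their median log2 fold change was -0.21. One of the higher genes, Ch25h, passed the filter on low counts through n-Braf alone. Without it 14 of 16 were lower, with a median of -0.22. Without n-Braf 2 the median of the 17 was -0.13, without control 1 it was -0.14, and against control 3 alone it was -0.26. The 12 oligodendrocyte markers were all lower too, with a median of -0.29. With their mean as a covariate the disease-associated median was -0.05. In that fit the homeostatic median rose as well, from 0.017 to 0.18. In edgeR's quasi-likelihood test 5 members, Cd63, Csf1, Lpl, Cd9 and Ctsd, were lower at an unadjusted p under 0.05, against 3.73% of all genes. All n-Braf libraries lay below all controls in 4 of the 17 tested, against 5.44% of all genes. These 4, Cd63, Csf1, Lpl and Cd9, are among the 5 just named. All 5 belong to a group of 11, among the 17 tested, listed as also made by neurons, astrocytes, oligodendrocytes, vessels or choroid plexus. That list came from general knowledge and was chosen with earlier results of these data known. The 6 tested members that are largely myeloid had a median of -0.15, and 0 of them had an unadjusted p under 0.05 or groups apart. Their summed level was 25.3, 22.2 and 28 CPM in n-Braf, against 28.7, 22.4 and 30.6 CPM in controls, with the groups overlapping. Their median depended on which controls were used: it was 0.044 without control 3, -0.0025 without control 1 and -0.26 without control 2.

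TREM2, a receptor for lipids and lipoproteins, signals through the adaptor TYROBP. Trem2 was at 2.88, 2.17 and 3.17 CPM in n-Braf, against 3.10, 3.55 and 3.27 CPM in controls, a log2 fold change of -0.27 (SE 0.20). One n-Braf library lay inside the control range. Tyrobp was at 2.82, 2.42 and 2.62 CPM in n-Braf, against 2.2, 2.80 and 4.28 CPM in controls, with 1 control below and 1 well above all n-Braf values and a log2 fold change of -0.24 (SE 0.26). Of 13 tested genes of a TREM2-TYROBP signalling list, such as the kinase gene Syk and the phospholipase gene Plcg2, 5 were higher and 8 lower, with a median of -0.074. Card9, an adaptor of that pathway, was at 0.876, 0.661 and 0.851 CPM in n-Braf, against 1.12, 0.897 and 1.32 CPM in controls, with no overlap. Its log2 fold change was -0.48 (adjusted p = 0.828 in edgeR's quasi-likelihood test).

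Among the genes of lipid handling, Apoe, the brain's main lipid carrier and chiefly an astrocyte product in healthy tissue, was the most abundant member per length of exon, at 342 CPM per kb in n-Braf, against 380 CPM per kb in controls. It was at 829, 614 and 750 CPM in n-Braf, against 833, 765 and 841 CPM in controls, with a log2 fold change of -0.15 (SE 0.11). It made up between 61.1% and 65.7% of the summed CPM of the tested disease-associated members in each library. The groups overlapped, and n-Braf 2 was again lowest. Lpl, which releases fatty acids from lipoproteins and is abundant in hippocampal neurons, was at 19.4, 14.6 and 22.8 CPM in n-Braf, against 24.6, 29.3 and 26.0 CPM in controls. The groups did not overlap, with a log2 fold change of -0.49 (SE 0.15, unadjusted p = 0.0102 and adjusted p = 0.580 in edgeR's quasi-likelihood test). Its highest control was control 2, and the log2 fold change was -0.52 (SE 0.24) in a fit that took the average choroid plexus marker level as a covariate, where its unadjusted p was 0.0555 in edgeR's quasi-likelihood test. Ch25h, which makes 25-hydroxycholesterol, went the other way. It had 26, 21 and 13 counts in n-Braf, against 6, 9 and 4 counts in controls, or 0.639 ± 0.186 CPM in n-Braf and 0.239 ± 0.0913 CPM in controls (SD, n = 3 each). The controls fall under the count minimum of 10, so the gene passed the filter through n-Braf alone, a selection that favours a difference. Its fitted log2 fold change of 1.40 (SE 0.45) is therefore a description, given with no test. Ch25h also overlaps the tested RNA gene Gm26902 on the opposite strand. Axl, a receptor for GAS6 that helps clear dying cells, averaged 25.8 ± 2.23 CPM in n-Braf and 27.3 ± 2.42 CPM in controls (SD, n = 3 each).

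**Figure D3:**
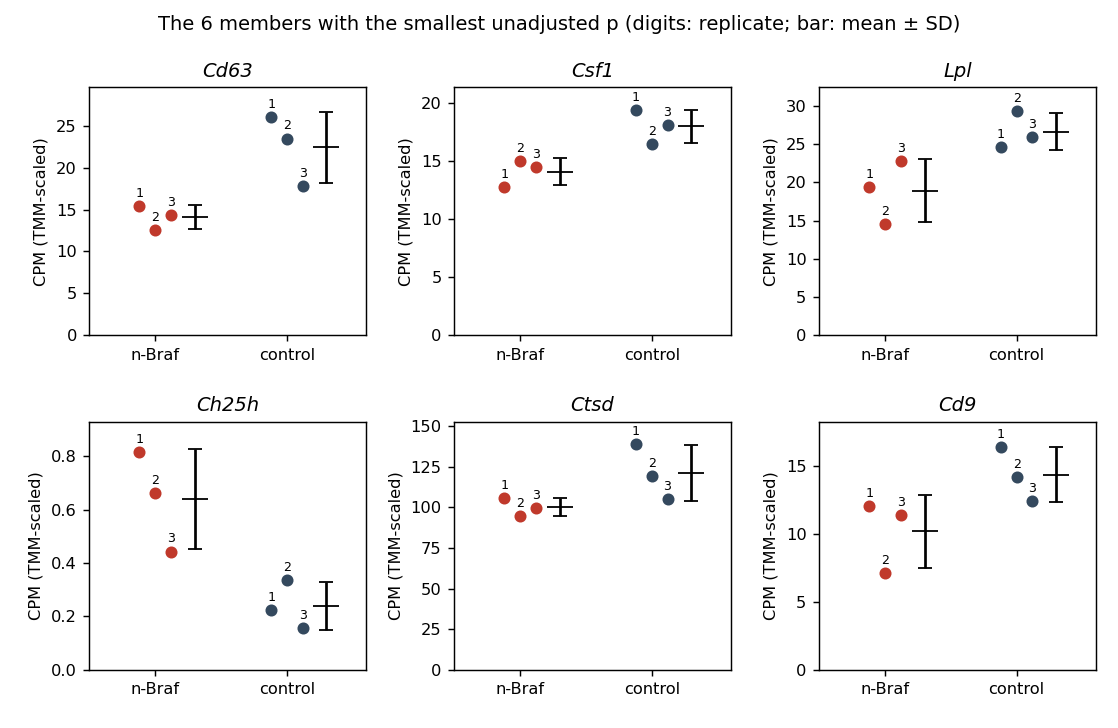
CPM of the 6 members with the smallest unadjusted p, one panel each, n-Braf left and controls right, with points numbered by replicate and a bar for the mean and SD of 3 libraries. Cd63, Csf1, Lpl and Cd9 have all n-Braf points below all controls, Ch25h, which passed the filter through n-Braf alone, has them above, and in Ctsd the ranges overlap. In Cd63, Ctsd and Cd9 control 1 is the highest and control 3 the lowest of the controls.

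Among the tetraspanin and lysosome genes, Cd63 had the smallest p of the 34 members. Cd63, a tetraspanin of late endosomes encoded on the plus strand at chr10:128900989-128912822 (GRCm38), was at 15.4, 12.6 and 14.4 CPM in n-Braf, against 26.1, 23.5 and 17.8 CPM in controls, with no overlap. The log2 fold change was -0.67 (SE 0.15, unadjusted p = 0.00137 and adjusted p = 0.527 in edgeR's quasi-likelihood test). Controls 1 and 2, where choroid plexus markers were high, were the high libraries. All 8 tested markers of ependymal cells, which line the ventricles, were lower too, with a sum of 25.7, 19.2 and 21.6 CPM in n-Braf, against 64.1, 53.5 and 32.3 CPM in controls. Against control 3 alone the log2 fold change of Cd63 was -0.33 (unadjusted p = 0.0735 in edgeR's quasi-likelihood test), and with the choroid plexus covariate it was -0.30, also short of an unadjusted p of 0.05. DESeq2 placed Cd63 at an adjusted p of 0.00892, where it called 0.425% of genes, and edgeR's exact test at 0.0419, where it called 0.32% of genes. Without control 3 the quasi-likelihood test gave a log2 fold change of -0.81 and an adjusted p of 0.0356, with 0.398% of genes called. The authors' deposited table gives Cd63 an adjusted p of 0.0659, and none of the members was under 0.05 there, with 0.141% of genes called.

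Cd9, a tetraspanin abundant in myelinating cells, was at 12.0, 7.11 and 11.4 CPM in n-Braf, against 16.4, 14.2 and 12.4 CPM in controls. The groups did not overlap, but n-Braf 1 lay close below control 3, and the log2 fold change was -0.49 (SE 0.20, adjusted p = 0.713 in edgeR's quasi-likelihood test). Without n-Braf 2, the lowest library, it was -0.29. Ctsd, the aspartic protease cathepsin D of every lysosome, was at 106, 94.7 and 99.5 CPM in n-Braf, against 139, 119 and 105 CPM in controls, a log2 fold change of -0.27 and an SE of 0.10 (adjusted p = 0.676 in edgeR's quasi-likelihood test). The highest n-Braf library lay just above control 3. With the choroid plexus covariate the log2 fold change of Ctsd was -0.029, and against control 3 alone it was -0.062. Cd9 was at -0.29 under both of these. With age as a covariate the log2 fold changes were larger in size for Cd63 (-0.92), Lpl (-0.85), Cd9 (-0.94) and Ctsd (-0.41), and slightly smaller for Csf1 (-0.33). Of the leptomeningeal markers 8 of 9 were lower in n-Braf, with a summed level of 105, 77.9 and 34.6 CPM, against 205, 98.8 and 84 CPM in controls. All 12 oligodendrocyte markers were lower too, with a sum of 1534, 1569 and 2105 CPM in n-Braf, against 2090, 1810 and 2336 CPM in controls. With the oligodendrocyte covariate 2 of the 34 members, Cd63 (lower) and Gpnmb (higher), had an unadjusted p under 0.05 in edgeR's quasi-likelihood test, against 4.21% of all genes in that fit. Whether leptomeningeal tissue has a part in the values of Cd63, Ctsd and Cd9 was not tested.

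The other lysosomal members overlapped between the groups. Ctsb, cathepsin B, averaged 189 ± 7.15 CPM in n-Braf and 190 ± 4.45 CPM in controls. Ctsz, cathepsin Z, averaged 9.93 ± 1.16 CPM in n-Braf and 11.7 ± 1.21 CPM in controls. Cd68, a lysosomal glycoprotein of phagocytes, averaged 2.45 ± 0.213 CPM in n-Braf and 2.44 ± 0.615 CPM in controls (SD, n = 3 each). Gpnmb, a lysosomal glycoprotein that marks lipid-laden macrophages, was at 2.63, 3.02 and 5 CPM in n-Braf, against 2.57, 1.94 and 3.31 CPM in controls. The highest value was in n-Braf 3. Spp1, the secreted protein osteopontin, was scattered in both groups, between 1.26 and 5.54 CPM in n-Braf and between 1.61 and 6.23 CPM in controls. Lyz2, lysozyme, ranged from 3.30 to 4.57 CPM in n-Braf and from 2.02 to 5.48 CPM in controls. B2m, the light chain of class I antigen-presenting molecules, was at 16.2, 15.2 and 19.2 CPM in n-Braf, against 23.7, 15.7 and 18.5 CPM in controls, with control 1 the highest.

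**Figure D4:**
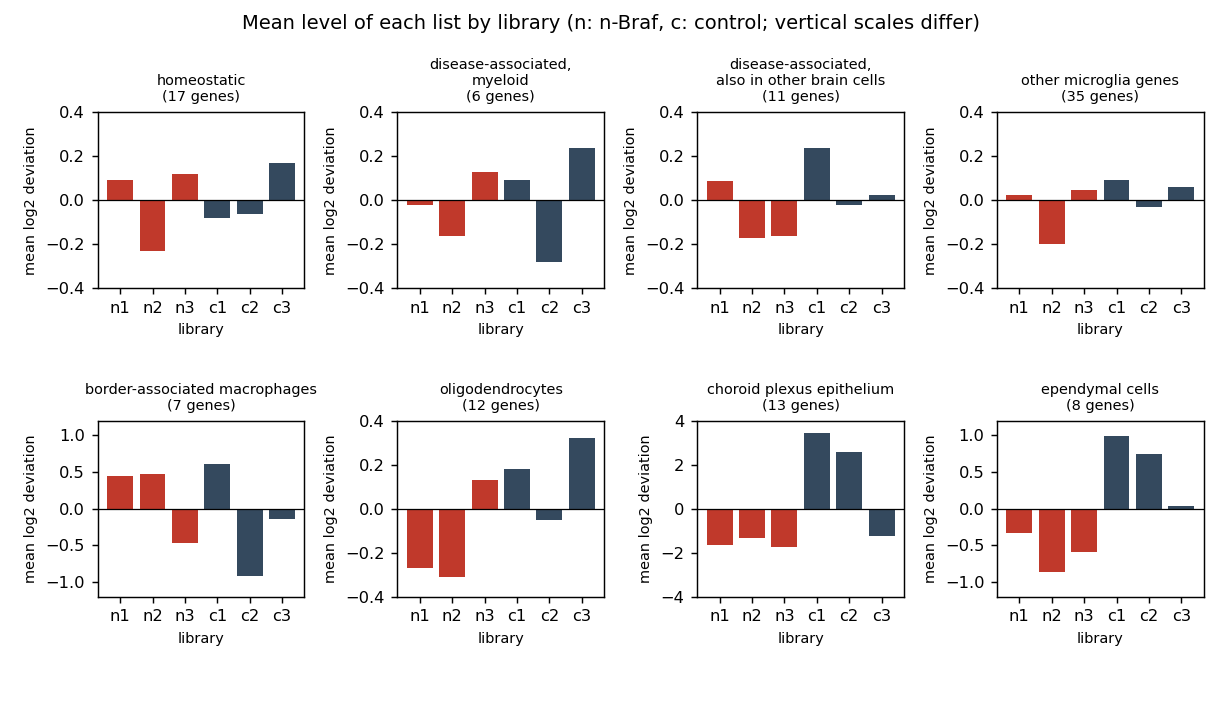
Mean log2 CPM of each gene list minus its mean over 6 libraries, with bars for n-Braf 1 to 3 (red) and controls 1 to 3 (dark blue), on vertical scales that differ. The homeostatic genes are lowest in n-Braf 2 (-0.23) and highest in control 3 (0.17), the myeloid disease-associated genes are lowest in control 2 (-0.28), and the choroid plexus markers are high in controls 1 and 2 (3.45 and 2.57).

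Microglial genes outside both subsets were about evenly split. Of 35 tested, among them the transcription factor genes Spi1 and Irf8, 15 were higher and 20 lower, with a median of -0.037. In edgeR's quasi-likelihood test 2 of the 35 had an unadjusted p under 0.05, against 6.82% of all genes. The groups did not overlap in 2 of the 35, against 11.5% of all genes. Ltc4s, which makes leukotriene C4, was at 0.657, 0.724 and 0.545 CPM in n-Braf, against 1.42, 1.5 and 0.895 CPM in controls. Tgfbr1, a receptor for the TGF-beta that microglia need to keep their identity, was at 18.4, 18.9 and 21.8 CPM in n-Braf, against 23.9, 25 and 23 CPM in controls, with no overlap, and the log2 fold change was -0.28 (SE 0.09; adjusted p = 0.630 in edgeR's quasi-likelihood test). Of 15 genes on a list of inflammatory cytokines, chemokines and other inflammation genes only 4 were among the genes tested, with 1 higher and 3 lower. These were Ptgs2, Tspo, Il18 and Nlrp3, of which only Il18 encodes a cytokine. Tspo, a mitochondrial protein whose ligands are used to image activated microglia, was at 0.688, 0.787 and 0.477 CPM in n-Braf, against 1.45, 0.748 and 0.389 CPM in controls, and the groups overlapped. Ptgs2, an enzyme that neurons make in response to activity, was at 19.4, 12.5 and 18.5 CPM in n-Braf, against 13.4, 14.6 and 12.6 CPM in controls. Gfap, the filament protein that reactive astrocytes raise beside activated microglia, averaged 219 ± 28.5 CPM in n-Braf and 217 ± 7.97 CPM in controls (SD, n = 3 each).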

How the data were processed

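RNA-seq of hippocampus was analysed from 6 mice, 3 per group, as labelled. The submitters' processing notes name bcl2fastq 2.20, fastp 0.20.1, STAR, RSEM and edgeR 3.36.0 on mm10, while the annotation release, the strand setting and the versions of STAR and RSEM are not given in the sources used here. Values deposited per gene are expected counts, in which RSEM splits reads that fit several genes. In 27 of the 34 tested members the deposited counts were whole in all 6 libraries. Csf1r, Itgam, Cd9, Cd63, Ctsb, Ctsd and Lyz2 had fractional counts, and so carry an uncertainty from shared reads. Beside them the authors list a log2 fold change, a mean log2 CPM, a p-value and its adjusted form. In every listed gene the third highest count was at least 8.75.

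Counts were rounded, filtered with filterByExpr (minimum count 10), scaled by TMM and tested with edgeR 4.0.16 quasi-likelihood in R 4.3.3. Group was its sole term, with Benjamini-Hochberg adjustment over all 20604 genes. The test was checked on simulated data. Log2 CPM uses a prior count of 2. CPM per kb divides by the merged exon length of GENCODE M21, which counts retained introns. DESeq2 1.42.0 was an alternative. Library totals are given in the text, and p-values measure the spread between mice. The members, gene lists and motifs were chosen with earlier results of these data known. The genes given value by value were chosen by a rule: 10 core genes, members with groups apart, and in each subset the 4 with the smallest p and the 2 most abundant per length. Other members are given by mean, range or overlap, except Gpnmb and B2m, whose values were added after they were seen. Alternatives covered scaling, test, filter, replicate block, age, marker covariates, left-out libraries and left-out abundant genes.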

Additional observations from a re-analysis of the deposited data

How the results depend on the processing

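List medians and counts of calls were recomputed under 18 other settings, and the count of members with groups apart only with libraries left out or another scaling. The quasi-likelihood test's 0 calls over all genes became 29 higher and 50 lower with DESeq2, 15 and 51 with edgeR's exact test, 2 and 1 without controls 1 and 2, 1 higher without mitochondrial and the most abundant genes, 2 higher at an adjusted p of 0.1, and 0 to 6 higher and 0 to 76 lower when single libraries were left out, the highest numbers without control 3. Members called lower were 1, Cd63, with DESeq2, the exact test and without control 3, and 0 to 1 over the left-out libraries. Members with an unadjusted p under 0.05, with Ch25h among those tested, numbered 2 with the oligodendrocyte covariate and 4 to 6 with single libraries left out, where 4.59% to 7.57% of all genes had one, and members with groups apart numbered 19 without controls 1 and 2, where 47.6% of all genes were apart, and 7 to 10 with single libraries left out, where 19.5% to 23.6% were. The homeostatic median was -0.22 with the choroid plexus covariate and -0.17 without controls 1 and 2, and ran from -0.067 to 0.10 over left-out libraries. Homeostatic members lower numbered 13 with age as a covariate, 14 with the choroid plexus covariate, 1 with the oligodendrocyte covariate, 14 without controls 1 and 2, and 3 to 12 over left-out libraries. The disease-associated median was -0.05 with the oligodendrocyte covariate and -0.30 to -0.13 over left-out libraries, with 11 to 15 of 17 lower in every setting. The myeloid median ran from -0.26 to 0.044 and that of the other microglia genes from -0.12 to 0.043 over left-out libraries, and the other microglia genes were at -0.16 with age as a covariate. Where controls 1 and 2 were left out, control 3 was given the spread of the 3 n-Braf mice by assumption, and Ch25h has no value under a filter on mean CPM. The cause of these shifts was not tested.

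Near 0, signs turned. Log2 fold changes with the oligodendrocyte covariate were 0.16 for P2ry12, 0.023 for Csf1r, 0.26 for C1qa and 0.18 for C1qb. With age they were -0.0034 for Tmem119, -0.063 for Cx3cr1, -0.029 for C1qc, -0.27 for Ctss and 0.0059 for Tyrobp. With the choroid plexus covariate they were -0.028 for Tmem119, -0.27 for C1qc and -0.26 for Ctss, and without controls 1 and 2 they were -0.023, -0.22 and -0.17 for these genes. C1qc was at -0.0045 with library sizes alone. Over left-out libraries P2ry12 ran from -0.17 to 0.065, Cx3cr1 from -0.0047 to 0.24, C1qa from -0.21 to 0.085, C1qb from -0.27 to 0.074, C1qc from -0.07 to 0.15, Ctss from -0.15 to 0.23 and Tyrobp from -0.43 to 0.066. Over all settings 15 of 17 homeostatic and 6 of 17 disease-associated members turned sign at least once.

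With the replicate number as a block the homeostatic median was 0.021, the disease-associated median -0.20 and the calls over all genes 0 and 0. Deviations of same-numbered libraries correlated at 0.103, -0.0457 and -0.0145, so the numbers were not taken as pairs. With 3 mice a group, and few counts in genes such as Ch25h, small differences were not detectable.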
